A study of Mus musculus with 12 samples.

Results

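The genes described here encode the machinery of DNA replication and of mitosis. They are 57 of the 31017 genes in the count tables, taken by symbol, with 27 genes of replication and 30 of mitosis. All 57 were found in both tables and passed the filter on low counts, and the lowest count of any of them in a library was 146.

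The cells were 4T1, an established mouse mammary carcinoma line, and their polyadenylated RNA was read in 12 libraries, 2 for each of 6 groups. The c1 and c2 cells were each a single clone in which Etv4, the gene of an ETS family transcription factor, had been targeted with Cas9 and sgRNA, while control sgRNA had been given to the control cells, which were pooled clones. Each was grown in collagen I gels (3D) or on plastic (2D). The gels held 1.2 or 2.4 mg/ml collagen per the labels' protocols, which do not say which library had which, and they were digested with collagenase I before RNA was taken. Each 3D library differs from the 2D ones in culture, in the collagenase digestion and in the table it was counted in, and these cannot be told apart below. Nor can the targeting of Etv4 be told apart from the single-clone origin of c1 and c2. The labels do not say that the libraries of a group came from separate cultures, so p-values measure the spread between these libraries, which may be technical.

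A cell copies its genome in S phase and shares it out in mitosis, and the genes for each task are transcribed in waves. Replication genes are classic targets of E2F transcription factors, which are held back by the retinoblastoma protein family until cyclin-dependent kinases release them. Mitotic genes peak later and are known for promoters with a CHR element and CCAAT boxes, where the DREAM complex represses and B-Myb and FoxM1 activate. In tumour cell lines the RNA level of both classes is commonly read as a sign of how many cells are cycling.

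Library totals were 12.3 to 18.7 M counts in 2D and 26.5 to 33.2 M in 3D. Etv4 itself stood at 69.9 and 69.1 counts per M (CPM) in c1, 86.6 and 91.5 CPM in c2 and 94.7 and 99.4 CPM in control in 3D. In 2D it stood at 49.8 and 49.2 CPM in c1, 49.3 and 46.0 CPM in c2, and 78.1 and 76.0 CPM in control, and a count over the whole gene need not show a small indel. The predicted gene Gm26917 held 10.9 to 14.95% of the counts in 3D and 1.75 to 2.03% in 2D, and its part in the results was not tested beyond leaving it out. The 6 epithelial markers summed to 2654 to 4636 CPM, while those of leukocytes, fibroblasts and endothelium each stayed at or under 24.6 CPM. The fibroblast markers summed to 18.9 to 24.6 CPM in 3D and 3.89 to 7.33 CPM in 2D, of which Pdgfra had 519 to 652 counts in a 3D library and 51 to 90 in a 2D library, with Pdgfrb and Lum at 0 in every library. The endothelial markers summed to 3.56 to 5.27 CPM in 3D and 8.35 to 15.3 CPM in 2D, and those of leukocytes to 7.5 to 10.4 CPM in 3D and 1.66 to 5.63 CPM in 2D. The part of these differences in the results by format was not tested.

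The members spanned a wide range of levels. Per kb of exon, the means of the control libraries in 2D were highest for Top2a, the topoisomerase that untangles sister chromatids, at 209.9 CPM per kb, and for Pcna, the sliding clamp of the replication fork, at 168.9 CPM per kb. They were lowest for E2f2 at 2.65 CPM per kb and E2f1 at 3.73 CPM per kb, both activating E2F factors. In 3D control cells Pcna was at 123.5 and Top2a at 98.98 CPM per kb, so the order of these top genes differed between the formats.

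Most members were lower in collagen gels than on plastic, in clones and control alike, and E2f1, E2f7, E2f8, Cdt1, Foxm1 and Cdc25b went the other way. In c1, 5 replication genes were higher and 21 lower, and 4 mitotic genes were higher and 25 lower. In c2, 4 replication genes were higher and 22 lower, and 2 mitotic genes were higher and 28 lower. In control cells, 4 replication genes were higher and 21 lower, and 3 mitotic genes were higher and 26 lower. A gene was called at an adjusted p of 0.05 in edgeR's quasi-likelihood test (two-sided), adjusted by Benjamini-Hochberg over all 13763 genes tested. Of the members called in either direction, 49 of 55 in c1, 55 of 56 in c2 and 46 of 54 in control passed in each of the 12 fits that left out a library.

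Over all genes tested, 39.8% were higher and 35.3% lower in 3D in c1, 42.5% higher and 37% lower in c2, and 41.7% higher and 35.6% lower in control. The median log2 change of the replication genes was -0.42 in c1, -0.99 in c2 and -0.66 in control. That of the mitotic genes was -0.62 in c1, -1.04 in c2 and -0.66 in control. The median of all genes was 0.08 in c1, 0.11 in c2 and 0.10 in control. No library is shared between these comparisons, and 20 of 27 replication genes and 25 of 30 mitotic genes were called lower in all 3 kinds of cells, against 29.3% of all genes tested. Cdt1, E2f1, E2f7, E2f8, Cdc25b and Foxm1 were called higher in all 3 kinds of cells, against 32.7% of all genes tested. With the clones averaged, 5 replication genes were higher and 22 lower and 2 mitotic genes higher and 27 lower, beside 44.9% higher and 38.5% lower over all genes. In bulk RNA, fewer cycling cells and less RNA of these genes per cell cannot be told apart.

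**Figure D1:**
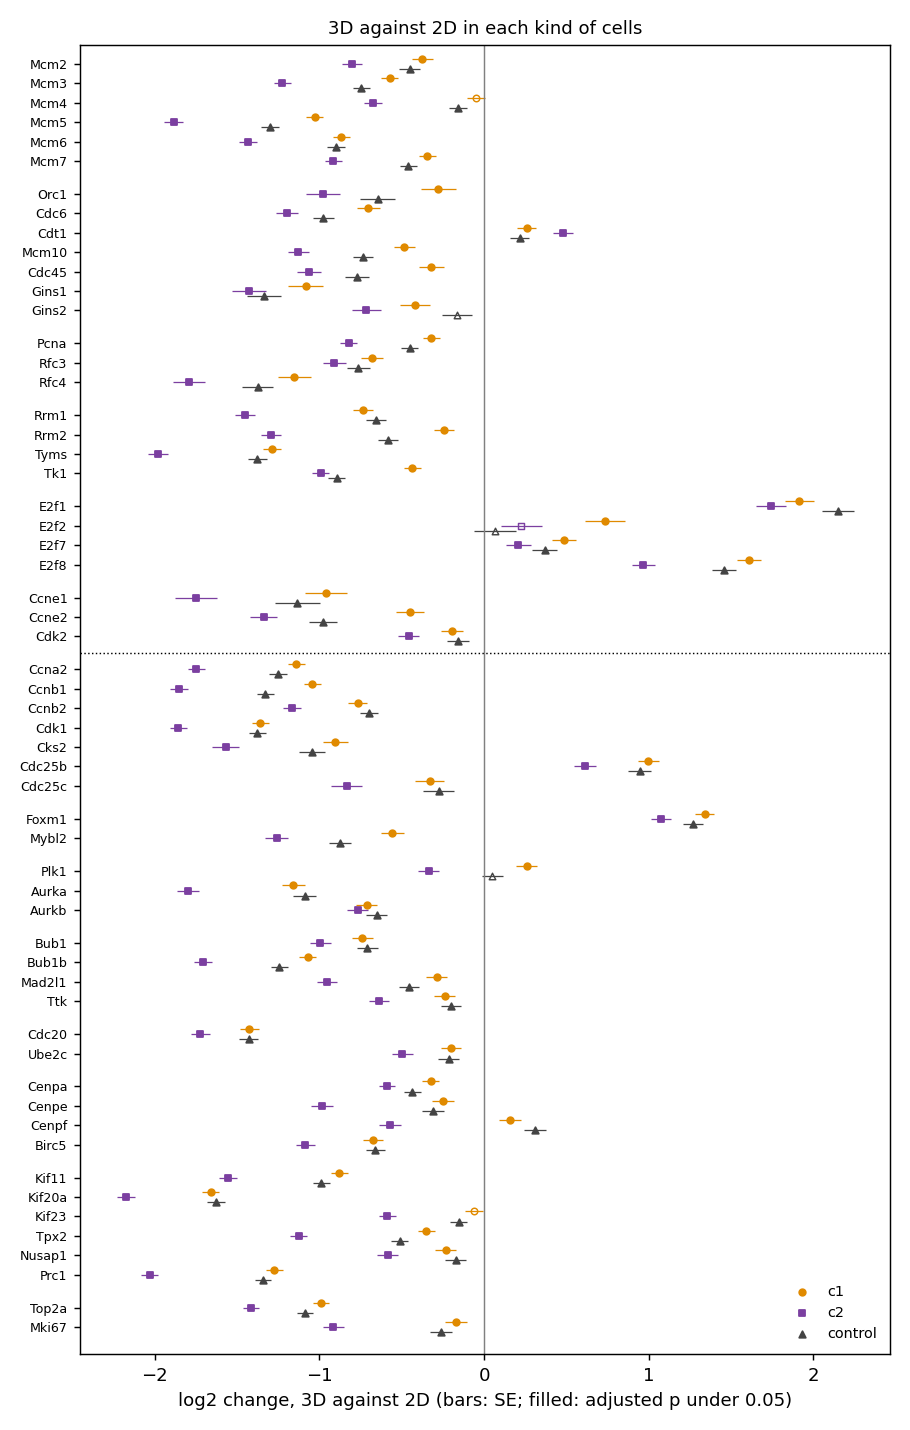
The log2 change of each of the 57 members in 3D against 2D (horizontal axis), in c1, c2 and control cells, with the 27 replication genes above the dotted line and the 30 mitotic genes below it, grouped by role. Points are fitted changes with bars of 1 SE, filled where the adjusted p is under 0.05. Most points lie left of 0, those of c2 farthest, while E2f1, E2f8, Foxm1 and Cdc25b lie right of 0 in all 3 kinds of cells.

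Among the 6 subunits of the MCM helicase, which unwinds DNA at the fork, all were lower in 3D in c2 and in control, and all but Mcm4 were called lower in c1. Mcm5 stood at 300.3 and 305 CPM in 3D, against 632 and 602 CPM in 2D in c1 cells. It stood at 169.7 and 179 CPM in 3D, against 641 and 649 CPM in 2D in c2 cells. In control cells Mcm5 stood at 250.4 and 248 CPM in 3D, against 644 and 581 CPM in 2D. The formats did not overlap in any kind of cells, and the log2 change of Mcm5 was -1.03 ± 0.05 in c1, -1.89 ± 0.06 in c2 and -1.30 ± 0.05 in control, with adjusted p of 1.4e-15, 4.6e-21 and 1.1e-17 in the same order. Mcm4 changed least, with a log2 change of -0.05 ± 0.06 in c1 (adjusted p = 0.45), -0.67 ± 0.06 in c2 (adjusted p = 1.5e-11) and -0.16 ± 0.05 in control (adjusted p = 0.0097, and 0.11 without the first control library in 3D).

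Origin licensing genes split between the 2 loading factors that bring the MCM ring to origins. Cdc6, an ATPase of the loading complex, fell in 3D, with log2 changes of -0.70 ± 0.07 in c1, -1.20 ± 0.07 in c2 and -0.98 ± 0.07 in control. Cdt1, which delivers the ring, rose instead. Its values were 158 and 151 CPM in 3D and 124 and 135 CPM in 2D in c1, and 132 and 135 CPM in 3D and 98.2 and 93.0 CPM in 2D in c2. Control cells had 167 and 169 CPM of Cdt1 in 3D and 149.5 and 139.8 CPM in 2D. The higher level in 3D was widest apart in c2, where the log2 change was 0.48 ± 0.06 (adjusted p = 3.7e-08), against 0.22 ± 0.06 in control (adjusted p = 0.0013). Orc1 of the origin recognition complex, Mcm10, Cdc45 and the GINS subunit Gins1, which help to build or fire the active helicase, fell in all 3 kinds of cells, with log2 changes between -1.43 and -0.28. The weakest of these, Orc1 in c1, had an adjusted p of 0.021, and of 0.57 without the first c1 library in 2D. Gins2 fell in c1 and c2 and had a log2 change of -0.17 ± 0.09 in control (adjusted p = 0.1). Of the exon bases of Gins2, 67.3% overlap Gse1 on the other strand, and the strand setting of the counting is not given in the sources used here, so its counts are uncertain.

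Behind the helicase, the clamp Pcna and the clamp loader subunits Rfc3 and Rfc4 fell in all 3 kinds of cells. Rfc4 had 15.5 and 15.1 CPM in 3D, against 38.5 and 40.7 CPM in 2D in control cells, log2 changes of -1.15 ± 0.10 in c1, -1.79 ± 0.10 in c2 and -1.38 ± 0.10 in control, and an adjusted p of 6.5e-13 in control. Of the genes that make DNA precursors, Tyms, the thymidylate synthase, had 42.6 and 41.7 CPM in 3D, against 164 and 169.5 CPM in 2D in c2 cells and 59.1 and 55.1 CPM in 3D, against 150.3 and 146 CPM in 2D in control cells. Tyms thus stood in 3D at 41% of its 2D level in c1, 25.3% in c2 and 38.5% in control, with adjusted p of 2.9e-17, 5.7e-21 and 1.1e-17 in the same order. Rrm1 and Rrm2, the subunits of ribonucleotide reductase, and Tk1, the thymidine salvage kinase, fell too, by the least in c1 for Rrm2 (log2 change -0.24 ± 0.06, adjusted p = 0.00075). Ccne1, Ccne2 and Cdk2, the cyclin E kinase that starts S phase, were lower in 3D in all 3 kinds of cells, with log2 changes of Ccne1 of -0.96 ± 0.13 in c1, -1.75 ± 0.13 in c2 and -1.13 ± 0.14 in control. Cdk2 moved little, at -0.19 ± 0.07 in c1 (adjusted p = 0.013, and 0.36 without the first c1 library in 2D) and -0.16 ± 0.07 in control (adjusted p = 0.032, and 0.37 without the second control library in 3D).

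Of the E2F factors, E2f1, E2f7 and E2f8 were higher in 3D in all 3 kinds of cells, while most replication genes were lower. E2f1, an activator, had 67.0 and 66.0 CPM in 3D, against 17.8 and 17.4 CPM in 2D in c1 cells. It had 45.1 and 47.5 CPM in 3D, against 13.1 and 14.7 CPM in 2D in c2 cells. In control cells it had 50.9 and 53.3 CPM in 3D, against 12.6 and 10.9 CPM in 2D. Every 3D library was above every 2D library, and the log2 change was 1.91 ± 0.09 in c1 (adjusted p = 1.4e-16), 1.74 ± 0.09 in c2 (adjusted p = 1.3e-15) and 2.15 ± 0.10 in control (adjusted p = 4.6e-17). E2f8, an atypical E2F that represses, had 168 and 166 CPM in 3D, against 54.7 and 66.5 CPM in 2D in control cells and was 3.05-fold higher in c1, 1.96-fold in c2 and 2.75-fold in control, with adjusted p of 5e-17, 2e-12 and 3.2e-16. E2f7, its close relative, rose by less, with log2 changes from 0.21 in c2, where the adjusted p was 0.18 without the second 2D library, to 0.49 in c1. E2f2 rose in c1 (log2 change 0.73 ± 0.12, adjusted p = 6.5e-06), and its log2 change was 0.23 ± 0.12 in c2 (adjusted p = 0.099) and 0.07 ± 0.13 in control (adjusted p = 0.64).

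Among the mitotic genes, the cyclins Ccna2, Ccnb1 and Ccnb2, their kinase Cdk1 and its small subunit Cks2 fell in 3D in all 3 kinds of cells. Cdk1 had 182 and 181 CPM in 3D, against 480.1 and 450.4 CPM in 2D in c1 cells. It had 149 and 154 CPM in 3D, against 547 and 550.4 CPM in 2D in c2 cells. In control cells Cdk1 had 162 and 159.8 CPM in 3D, against 419.9 and 416 CPM in 2D. Its 3D level was 39% of the 2D level in c1, 27.6% in c2 and 38.5% in control, with adjusted p of 8.9e-19, 1.2e-21 and 7.4e-19. The Cdc25 phosphatases, which switch Cdk1 on, moved apart. Cdc25b had 147 and 142 CPM in 3D, against 69.6 and 75.6 CPM in 2D in c1 cells, 73.6 and 74.9 CPM in 3D, against 49.3 and 47.9 CPM in 2D in c2 cells and 91.6 and 96.3 CPM in 3D, against 51.7 and 45.9 CPM in 2D in control cells. It was thus higher in 3D, by log2 changes of 1.00 ± 0.06 in c1, 0.61 ± 0.07 in c2 and 0.94 ± 0.07 in control, while those of Cdc25c were -0.33 ± 0.09, -0.83 ± 0.09 and -0.27 ± 0.09. All 6 changes passed the test, the weakest being Cdc25c in control with an adjusted p of 0.0099, and of 0.35 without the first control library in 2D.

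The transcription factors of the mitotic genes also moved apart. Foxm1, an activator of the late wave, had 184 and 185 CPM in 3D, against 72.6 and 73.0 CPM in 2D in c1 cells, 122 and 117 CPM in 3D, against 58.3 and 54.8 CPM in 2D in c2 cells and 136 and 140.5 CPM in 3D, against 54.9 and 59.7 CPM in 2D in control cells. It was 2.53-fold higher in c1, 2.11-fold in c2 and 2.41-fold in control, with adjusted p of 4.2e-17, 4.9e-15 and 2.1e-16. Mybl2, which encodes B-Myb, fell by log2 changes of -0.56 ± 0.07 in c1, -1.26 ± 0.07 in c2 and -0.87 ± 0.07 in control.

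Of the mitotic kinases, Aurka and Aurkb fell in all 3 kinds of cells and Plk1 did not. Aurka, the centrosomal kinase, had 62.0 and 63.2 CPM in 3D, against 128 and 139 CPM in 2D in control cells, a log2 change of -1.09 ± 0.07 (adjusted p = 4.3e-14). Plk1, a kinase needed for mitotic entry and spindle assembly, had a log2 change of 0.26 ± 0.06 in c1 (adjusted p = 0.00073), -0.34 ± 0.07 in c2 (adjusted p = 4.6e-05) and 0.05 ± 0.06 in control (adjusted p = 0.49). The spindle checkpoint genes Bub1, Bub1b, Mad2l1 and Ttk, which delay chromosome separation until the spindle is attached, were lower in 3D in every kind of cells, by the most for Bub1b at -1.07 ± 0.05, -1.71 ± 0.05 and -1.24 ± 0.05 in c1, c2 and control. Cdc20, the activator of the anaphase-promoting complex, had 102 and 104 CPM in 3D, against 281 and 275 CPM in 2D in control cells, a log2 change of -1.43 ± 0.06 (adjusted p = 6e-18). Ube2c, the ubiquitin-conjugating enzyme of that complex, changed by less, with -0.22 ± 0.06 in control (adjusted p = 0.0032). Without the first control library in 3D the adjusted p in control was 0.06 for Ube2c and 0.11 for Ttk.

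At the centromere, Cenpa, the centromeric histone, the motor Cenpe and Birc5, survivin of the passenger complex, fell in all 3 kinds of cells. Cenpf, a kinetochore protein, differed in direction between the cells. It had 284 and 267 CPM in 3D and 246 and 249 CPM in 2D in c1, 146 and 149 CPM in 3D and 204 and 236 CPM in 2D in c2, and 249.5 and 236 CPM in 3D and 180.1 and 211 CPM in 2D in control. The log2 change was 0.15 ± 0.07 in c1 (adjusted p = 0.038), -0.57 ± 0.07 in c2 (adjusted p = 1.9e-08) and 0.31 ± 0.07 in control (adjusted p = 0.00017), and the call in c1 was lost without its first library in 3D (adjusted p = 0.22). Among the spindle and cytokinesis genes, Kif20a, a kinesin of the central spindle, had 72.9 and 72.8 CPM in 3D, against 331 and 326 CPM in 2D in c2 cells and 91.2 and 97.5 CPM in 3D, against 298 and 285 CPM in 2D in control cells, and its 3D level was 31.6% of the 2D level in c1, 22.2% in c2 and 32.4% in control. It overlaps Cdc23 on the other strand over 29.3% of its exon bases. Prc1, the bundler of central spindle microtubules, followed with log2 changes of -1.27 ± 0.05, -2.03 ± 0.05 and -1.34 ± 0.05 in c1, c2 and control, and Kif11, Tpx2 and Nusap1, which build the spindle, fell in all 3 too, and the call of Nusap1 was lost in control without its second library in 3D (adjusted p = 0.3) and in c1 without its second library in 3D (adjusted p = 0.098). Kif23, another central spindle kinesin, changed little in c1 and control, at -0.06 ± 0.05 in c1 (adjusted p = 0.3), -0.59 ± 0.05 in c2 and -0.15 ± 0.05 in control (adjusted p = 0.0095, and 0.19 without the second control library in 3D). Top2a fell by log2 changes of -0.99 ± 0.05, -1.41 ± 0.05 and -1.08 ± 0.05 in c1, c2 and control, and Mki67, which encodes the proliferation marker Ki-67, by -0.17 ± 0.06, -0.92 ± 0.07 and -0.26 ± 0.06. The call of Mki67 was lost in c1 without its second library in 3D (adjusted p = 0.15) and in control without its second library in 3D (adjusted p = 0.087).

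Outside the 57 members, most genes of the same processes were lower in 3D too. Of 42 other replication genes, 37 were lower and 3 higher in 3D in c1, 39 lower and 0 higher in c2, and 37 lower and 2 higher in control. Of those, 0 were higher in c2 at an unadjusted p under 0.05 and 1 by DESeq2. Of 54 other mitotic genes, 40 were lower and 8 higher in c1, 48 lower and 3 higher in c2, and 43 lower and 5 higher in control. Of 13 genes of other E2F and DP factors and of the retinoblastoma and DREAM proteins, 3 were lower and 5 higher in c1, 8 lower and 5 higher in c2, and 5 lower and 4 higher in control. These are 23.1% lower and 38.5% higher in c1, 61.5% and 38.5% in c2, and 38.5% and 30.8% in control. Over all genes tested, 35.3% were lower and 39.8% higher in c1, 37% and 42.5% in c2, and 35.6% and 41.7% in control.

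The promoters of the 2 classes differed in the letters they hold. Promoter windows of 250 bases before to 50 after the gene start, from RefSeq on build GRCm38.p6, were found for 23 replication and 24 mitotic genes, and not for Aurkb, Ccna2, Ccne2, Cdc25c, Foxm1, Gins1, Gins2, Kif20a, Mcm4 and Tpx2. Some genes have more than 1 window, and a gene was counted if any of its windows held the motif. An E2F motif, any of TTTCCCGC, TTTGGCGC, TTTCGCGC and TTTGCCGC on either strand, was in 11 of 23 replication genes (47.8%), 1 of 24 mitotic genes (4.17%) and 2.6% of all 27025 genes with a window. The CHR element TTTGAA, on either strand, was in 4 of 23 replication genes (17.4%), 15 of 24 mitotic genes (62.5%) and 20.2% of all genes with a window. CCAAT, on either strand, was in 16 replication genes (69.6%), 20 mitotic genes (83.3%) and 41.1% of all genes with a window. CHR and CCAAT together, in the same or in different windows of a gene, were in 4 (17.4%), 15 (62.5%) and 8.97%. A match describes letters in this window and is not shown to be a binding site.

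Below are the promoters of the 2 replication genes Mcm6 and Mcm3, with E2F matches in capitals, and of the 2 mitotic genes Top2a and Ube2c, with CHR and CCAAT matches in capitals. They were chosen for their many matches, to show the motifs in which the classes differ. In Mcm6, 2 of the 3 E2F matches overlap on opposite strands and print as a single run, and in Ube2c 2 of the 6 CCAAT matches do. All are 5′ to 3′ on the strand of the gene: Mcm6 at chr1:128359656-128359955 on the minus strand, Mcm3 at chr1:20820263-20820562 on the minus strand, Top2a at chr11:99024140-99024439 on the minus strand and Ube2c at chr2:164769679-164769978 on the plus strand.
Mcm6: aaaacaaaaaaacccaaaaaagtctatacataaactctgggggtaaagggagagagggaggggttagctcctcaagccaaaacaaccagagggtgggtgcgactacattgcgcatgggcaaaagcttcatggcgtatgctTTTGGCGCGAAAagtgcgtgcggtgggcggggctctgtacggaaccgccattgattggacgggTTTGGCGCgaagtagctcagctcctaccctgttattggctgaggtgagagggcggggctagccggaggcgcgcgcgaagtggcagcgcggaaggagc
Mcm3: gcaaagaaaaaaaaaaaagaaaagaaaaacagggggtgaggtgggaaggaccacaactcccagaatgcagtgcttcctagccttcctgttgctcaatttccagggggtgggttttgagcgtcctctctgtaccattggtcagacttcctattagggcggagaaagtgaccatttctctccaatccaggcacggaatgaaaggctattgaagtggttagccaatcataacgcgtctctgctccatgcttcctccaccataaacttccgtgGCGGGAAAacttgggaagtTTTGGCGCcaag
Top2a: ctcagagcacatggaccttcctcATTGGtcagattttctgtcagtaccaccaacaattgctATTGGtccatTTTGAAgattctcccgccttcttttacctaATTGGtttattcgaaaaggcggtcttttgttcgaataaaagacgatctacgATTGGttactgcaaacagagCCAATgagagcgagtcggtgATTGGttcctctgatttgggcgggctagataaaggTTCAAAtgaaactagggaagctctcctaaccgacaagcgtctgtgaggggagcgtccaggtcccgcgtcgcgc
Ube2c: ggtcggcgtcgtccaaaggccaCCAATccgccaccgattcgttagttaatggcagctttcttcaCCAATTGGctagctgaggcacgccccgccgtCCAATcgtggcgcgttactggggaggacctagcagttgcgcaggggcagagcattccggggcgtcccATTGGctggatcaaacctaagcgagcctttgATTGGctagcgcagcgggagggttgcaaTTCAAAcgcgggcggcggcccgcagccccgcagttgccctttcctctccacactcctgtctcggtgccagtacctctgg
In Mcm6 the run TTTGGCGCGAAA and a separate TTTGGCGC are the E2F matches, whereas Top2a and Ube2c have none and carry 2 and 1 CHR elements with 6 CCAAT boxes each.

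In 3D the clones departed from control in opposite directions, c1 mostly upward and c2 almost wholly downward. Against control, 12 replication genes were higher and 4 lower in c1, and 20 mitotic genes were higher and 3 lower. In c2, 0 replication genes were higher and 16 lower, and 0 mitotic genes were higher and 26 lower. Over all genes tested, 22% were higher and 23% lower in c1, and 11.9% were higher and 17.4% lower in c2. For the 0 higher members of c2, edgeR also gave 0 at an unadjusted p under 0.05, and DESeq2 gave 0. The median log2 change was 0.18 for replication and 0.24 for mitotic genes in c1, against 0.00 for all genes, and -0.29 for replication and -0.28 for mitotic genes in c2, against 0.00 for all genes. Both clones were set against the same control libraries, so these comparisons are not independent.

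The direct comparison of the clones shares no control. Against c1, c2 had 0 members higher and 48 lower in 3D, made up of 23 of 27 replication and 25 of 30 mitotic genes, beside 26.4% higher and 28.5% lower over all genes tested. At an unadjusted p under 0.05, edgeR gave 0 members higher, and DESeq2 gave 0. The summed level of the 57 members was 9398 and 9073 CPM in c1, 6283 and 6350 CPM in c2 and 7974 and 7900 CPM in control. The groups did not overlap, with control between the clones. Of the members called, 34 of 42 in c2 and 25 of 39 in c1 passed the test in each of the 12 fits that left out a library. In c2, 26 replication and 30 mitotic genes had both libraries below both control libraries, and E2f2 had both above, beside 36.1% below and 36.3% above over all genes tested. In c1, 15 replication and 21 mitotic genes lay above both control libraries and 7 replication and 7 mitotic genes below, beside 37.9% above and 38.8% below over all genes. The 7 members lower in c1 became 12 when the 3D libraries were fitted alone. The share of all genes called in that fit is not given here and may have moved too. The 7 also changed when single libraries were left out.

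**Figure D2:**
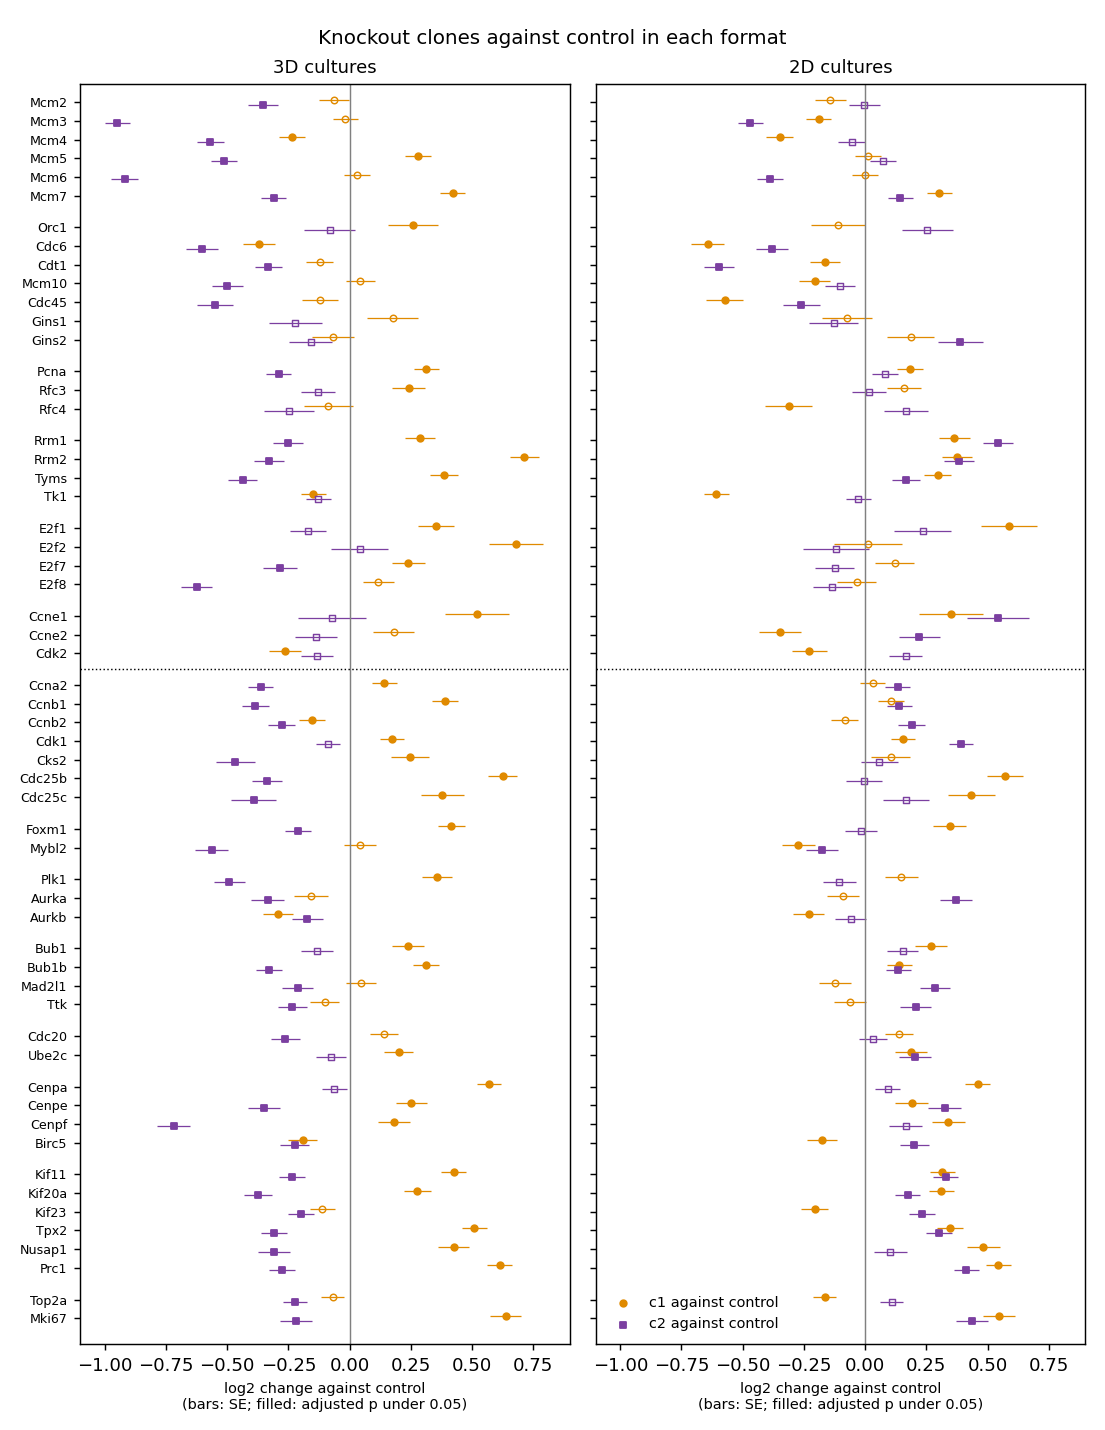
The log2 change of each member in c1 and in c2 against control (horizontal axes), in 3D cultures on the left and 2D cultures on the right, with replication genes above the dotted line. Bars are 1 SE and filled points have an adjusted p under 0.05. In 3D the points of c1 lie mostly right of 0 and those of c2 almost all left of 0, while in 2D both sets lie on both sides.

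In the MCM helicase, c2 was lower than control for all 6 subunits in 3D, and Mcm3 and Mcm6 fell the most before chromosomes were centred. Mcm3 stood at 199 and 195 CPM in c1, 102 and 105 CPM in c2, and 195 and 204 CPM in control libraries. Mcm6 stood at 305 and 288 CPM in c1, 151 and 156 CPM in c2, and 289.5 and 291 CPM in control libraries. The c1 and control libraries overlapped for both genes, with both c2 libraries far below. In c2 the log2 change was -0.95 ± 0.05 for Mcm3 (adjusted p = 2.8e-13) and -0.92 ± 0.05 for Mcm6 (adjusted p = 1.2e-12), against -0.02 ± 0.05 (adjusted p = 0.8) and 0.03 ± 0.05 (adjusted p = 0.66) in c1. Both lie on chromosome 1, whose genes were low as a whole in c2, with a median log2 change of -0.53 in 3D. The medians of the chromosomes of Mcm2, Mcm4, Mcm5 and Mcm7 were 0.15, -0.08, 0.02 and 0.07. The rank of Mcm3 and Mcm6 among the subunits is thus from values that do not allow for the chromosome. Values that allow for it are given below for these 2 genes. Mcm7 and Mcm5 instead differed from control in both clones and in opposite directions. Mcm7 stood at 296 and 296 CPM in c1, 178 and 179 CPM in c2, and 222 and 219.6 CPM in control libraries, log2 changes of 0.42 ± 0.05 in c1 (adjusted p = 1.7e-07) and -0.31 ± 0.05 in c2 (adjusted p = 3.5e-05).

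In the licensing group, Cdc6 alone passed the test as lower in both clones in 3D. Its values were 43.4 and 45.4 CPM in c1, 35.5 and 40.1 CPM in c2, and 56.6 and 58.1 CPM in control libraries. Both clones lay below control, with log2 changes of -0.37 ± 0.07 in c1 (adjusted p = 5e-05, and a change of 0.11 with adjusted p = 0.23 with chromosomes centred) and -0.60 ± 0.07 in c2 (adjusted p = 8.9e-08). Cdt1, Mcm10 and Cdc45 were lower in c2, at -0.33 ± 0.06, -0.50 ± 0.06 and -0.55 ± 0.07, and did not pass the test in c1. The ribonucleotide reductase subunit Rrm2 had one of the widest gaps between the clones, with 248 and 239 CPM in c1, 112 and 124 CPM in c2, and 142 and 154 CPM in control libraries. It rose in c1 by a log2 change of 0.71 ± 0.06 (adjusted p = 2.8e-10) and fell in c2 by -0.33 ± 0.06 (adjusted p = 0.00015), and c2 against c1 was -1.04 ± 0.06 (adjusted p = 9e-14). Tyms, Rrm1 and Pcna likewise rose in c1, by 0.39, 0.29 and 0.31 on the log2 scale, and had log2 changes of -0.44, -0.25 and -0.29 in c2, each with an adjusted p under the threshold. Rfc4, the clamp loader subunit with the smallest p for the clones' mean, had changes that did not pass the test in c1 (-0.09 ± 0.10, adjusted p = 0.51) or in c2 (-0.25 ± 0.10, adjusted p = 0.067).

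The E2F factors differed between the clones as well. E2f8 was at 184 and 178 CPM in c1, 108 and 108 CPM in c2, and 168 and 166 CPM in control libraries, lower in c2 by a log2 change of -0.62 ± 0.06 (adjusted p = 2.7e-08) and at 0.12 ± 0.06 in c1 (adjusted p = 0.14). E2f2 was at 21 and 22.4 CPM in c1, 14.02 and 13.9 CPM in c2, and 13.7 and 13.4 CPM in control libraries, higher in c1 by 0.68 ± 0.11 (adjusted p = 1.5e-05) and at 0.04 ± 0.11 in c2 (adjusted p = 0.83). The c1 libraries thus held the highest level of both genes. Cdk2 was the exception of its group, lower in c1 at -0.26 ± 0.06 (adjusted p = 0.0016, and 0.12 with chromosomes centred) and not called in c2 at -0.13 ± 0.06 (adjusted p = 0.13).

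Mki67, Prc1 and Tpx2 were among the mitotic genes with the widest gaps between the clones in 3D. Mki67 stood at 1105 and 1067 CPM in c1, 606 and 595 CPM in c2, and 742 and 655 CPM in control libraries. Prc1 stood at 194 and 190.5 CPM in c1, 104 and 104 CPM in c2, and 125 and 126 CPM in control libraries. For both, the libraries of c1 were above and those of c2 below both control libraries. The log2 change of Mki67 was 0.64 ± 0.06 in c1 (adjusted p = 8.9e-09) and -0.22 ± 0.06 in c2 (adjusted p = 0.011), and that of Prc1 was 0.61 ± 0.05 (adjusted p = 2.3e-10) and -0.28 ± 0.05 (adjusted p = 0.00018). Tpx2, which activates Aurora A kinase on the spindle, was at 0.51 ± 0.05 in c1 and -0.31 ± 0.05 in c2. Cdc25b, Plk1 and Kif11 followed the same pattern, with log2 changes of 0.62, 0.36 and 0.42 in c1 and of -0.34, -0.49 and -0.24 in c2, all past the threshold. Foxm1 was higher in c1 by 0.42 ± 0.05 (adjusted p = 5.3e-07) and lower in c2 by -0.21 ± 0.05 (adjusted p = 0.0041, and 0.085 without the second c2 library). Mybl2 was lower in c2 by -0.56 ± 0.07 (adjusted p = 3.6e-07), with c1 at 0.04 ± 0.07 (adjusted p = 0.64). Cenpa, in contrast, was at 198 and 197 CPM in c1, 126 and 128 CPM in c2, and 133 and 133 CPM in control libraries, higher in c1 by 0.57 ± 0.05 (adjusted p = 6.8e-10) and not called in c2 at -0.06 ± 0.05 (adjusted p = 0.39). Ccnb2, Aurkb and Birc5 were lower in both clones, with log2 changes of -0.15, -0.29 and -0.19 in c1 and of -0.28, -0.17 and -0.22 in c2, all past the threshold. With chromosomes centred, none of the 3 was lower in c1, where Ccnb2 was at 0.06 (adjusted p = 0.4), Aurkb at 0.19 (adjusted p = 0.018) and Birc5 at 0.29 (adjusted p = 0.00074). Single libraries decided some of these calls, with an adjusted p of 0.31 for Ccnb2 and 0.18 for Birc5 in c1 without its second library, and of 0.33 for Aurkb in c2 without its first library. The checkpoint genes Ttk and Mad2l1 were lower in c2 by -0.23 ± 0.06 and -0.21 ± 0.06, and Cdc20 by -0.26 ± 0.06, while none of these 3 passed the test in c1. In c2 the adjusted p was 0.21 for Mad2l1 without the first c2 library, 0.078 for Ttk without the second control library and 0.29 for Mki67 without the first control library.

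Averaged over the clones, fewer members passed the test in 3D than in either clone. For the mean of c1 and c2 against control, 2 replication genes were higher and 11 lower, and 4 mitotic genes were higher and 9 lower, beside 11.5% higher and 17.4% lower over all genes tested. The 6 higher members were Rrm2, E2f2, Cdc25b, Cenpa, Prc1 and Mki67, and without either control library in 3D their count was 2. Of the 26 members called, 12 passed in each fit that left out a library. The medians were -0.11 for replication and -0.05 for mitotic genes. All 6 higher members were called higher in c1. In c2, Rrm2, Cdc25b, Prc1 and Mki67 were called lower, and E2f2 and Cenpa were not called. The test of the mean measures the spread between libraries and not that between the clones. Of the members, 10.5% were higher, near the 11.5% of all genes.

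In 2D the picture differed, since mitotic genes were more often higher than lower in both clones and replication genes went both ways. In c1, 7 replication genes were higher and 10 lower, and 16 mitotic genes were higher and 5 lower, beside 19.8% higher and 20% lower over all genes tested. In c2, 7 replication genes were higher and 5 lower, and 17 mitotic genes were higher and 1 lower, beside 18.9% higher and 15% lower over all genes. Of the replication genes in c2, 25.9% were higher and 18.5% lower, near the shares of all genes. With chromosomes centred, 14.8% of the replication genes went each way in c1, beside 17.5% higher and 13.7% lower over all genes. In c2, 18.5% were then higher and 14.8% lower, beside 16.4% and 11.9%. The centred replication counts were thus near the shares of all genes in both clones. For the mean of both clones, 8 replication genes were higher and 8 lower, and 17 mitotic genes were higher and 2 lower, beside 17.9% higher and 17.6% lower over all genes. Of the members called, 24 of 38 in c1, 17 of 30 in c2 and 21 of 35 for the mean passed in each fit that left out a library. Fitted without the 3D libraries, c2 had 13 members higher in place of 24. The share of all genes called in that fit is not given here and may have moved too. Here too both clones were set against the same control libraries. Set against each other in 2D, c2 had 18 members higher and 15 lower than c1, beside 23.2% higher and 18.4% lower over all genes. With chromosomes centred, 10 were higher and 10 lower. These were 17.5% each way, near the 17.1% higher and 16.5% lower of all genes in that fit.

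The 2 classes can be read against each other within each library. For each gene the log2 CPM was taken relative to its own mean in the control libraries in 2D, and the median over the mitotic genes minus that over the replication genes was 0.13 and 0.23 in the c1 libraries and 0.13 and 0.17 in the c2 libraries, while the control libraries stood at -0.021 and 0.021. All 4 clone libraries were above both control libraries in 2D. In 3D the same difference was -0.014 and 0.016 in c1, 0.051 and 0.062 in c2, and -0.003 and 0.013 in control, so by this measure only c2 had both libraries above both control libraries. The median log2 CPM of the mitotic genes minus that of the replication genes, a difference of levels and not of changes, gave another order in 3D, at 0.90 and 0.91 in c1, 0.77 and 0.81 in c2, and 0.63 and 0.62 in control. In 2D it was 1.28 and 1.19 in c1, 1.01 and 1.08 in c2, and 0.65 and 0.63 in control, so by levels both clones were above control in both formats. The replication median level in 2D was 6.26 and 6.25 in c1, against 6.82 and 6.82 in control, while the median change in c1 was -0.035. The difference of levels is therefore no measure of how the genes changed. From the fits, the mitotic median minus the replication median was 0.21 for the mean of the clones in 2D (0.19 in c1 and 0.15 in c2) and 0.07 in 3D (0.07 in c1 and 0.01 in c2). No p is given for these values, since the members were listed with results of these data known.

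**Figure D3:**
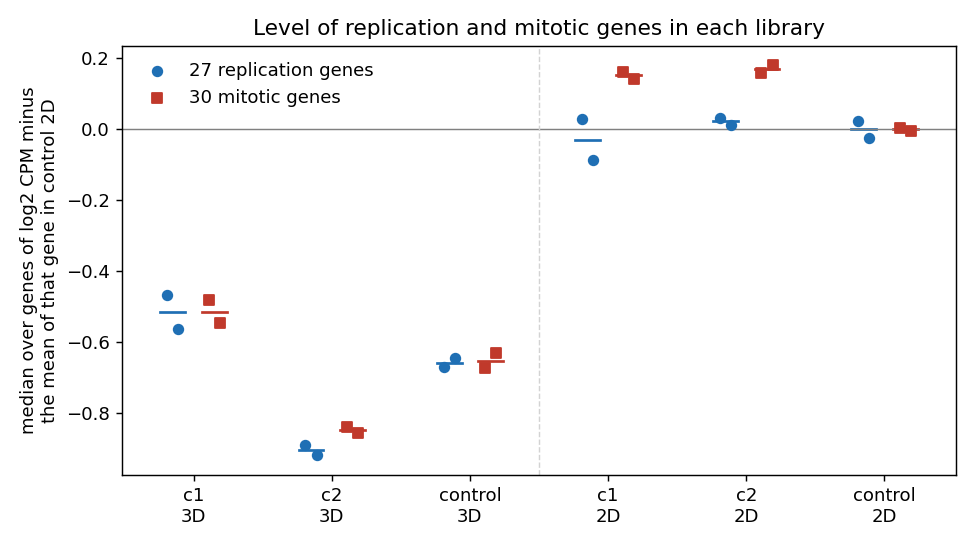
Median over the 27 replication genes (circles) and the 30 mitotic genes (squares) of the log2 CPM of each gene minus its mean in both control 2D libraries (vertical axis), in each of the 12 libraries by group (horizontal axis). Points are libraries and bars are group means. In 2D the squares of c1 and c2 lie above their circles, while in 3D both symbols fall together and are highest in c1 and lowest in c2.

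Among the mitotic genes that rose in both clones in 2D were Mki67, Prc1, Tpx2 and Kif11. Mki67 stood at 1194 and 1252 CPM in c1, 1049 and 1217 CPM in c2, and 798 and 876 CPM in control libraries. Prc1 stood at 467 and 461 CPM in c1, 428 and 419.6 CPM in c2, and 329 and 308 CPM in control libraries. All clone libraries were above both control libraries for both genes. The log2 change of Mki67 was 0.55 ± 0.07 in c1 (adjusted p = 2e-07) and 0.44 ± 0.07 in c2 (adjusted p = 9.8e-06), and that of Prc1 was 0.54 ± 0.05 (adjusted p = 2.9e-09) and 0.41 ± 0.05 (adjusted p = 5.1e-07). Tpx2 and Kif11 rose by 0.35 ± 0.05 and 0.32 ± 0.05 in c1 and by 0.30 ± 0.05 and 0.33 ± 0.05 in c2. Cdk1 stood at 480.1 and 450.4 CPM in c1, 547 and 550.4 CPM in c2, and 419.9 and 416 CPM in control libraries, log2 changes of 0.15 ± 0.05 in c1 (adjusted p = 0.015, and 0.16 without the first c1 library) and 0.39 ± 0.05 in c2 (adjusted p = 9.5e-07). Ube2c rose in both clones, by 0.19 ± 0.06 (adjusted p = 0.023, and 0.37 without the second c1 library) and 0.20 ± 0.06 (adjusted p = 0.015, and 0.071 without the second c2 library), and overlaps Tnnc2 on the other strand over 22.8% of its exon bases. Some genes rose in only 1 clone by the test, such as Cdc25b and Cenpa in c1 (0.57 ± 0.07 and 0.46 ± 0.05, against -0.01 ± 0.07 and 0.09 ± 0.05 in c2) and Aurka and Mad2l1 in c2 (0.37 ± 0.07 and 0.29 ± 0.06, against -0.09 ± 0.07 and -0.12 ± 0.06 in c1). Between the clones, c2 against c1, the log2 change was -0.58 ± 0.07 for Cdc25b (adjusted p = 3.6e-07), -0.37 ± 0.05 for Cenpa (adjusted p = 2e-06), 0.46 ± 0.07 for Aurka (adjusted p = 2.8e-06) and 0.41 ± 0.06 for Mad2l1 (adjusted p = 1e-05).

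The mitotic genes that were lower for the clones' mean in 2D were Mybl2 and Aurkb. Mybl2 stood at 89.8 and 81.3 CPM in c1, 93.6 and 89.5 CPM in c2, and 99.1 and 108 CPM in control libraries, lower in both clones, with a log2 change of the mean of -0.22 ± 0.06 (adjusted p = 0.0033, and 0.091 without the second control library). In c2 alone the adjusted p of Mybl2 was 0.043, and 0.3 without that library. Aurkb, the kinase of the passenger complex, had a log2 change of the mean of -0.14 ± 0.06 (adjusted p = 0.043), made up of -0.23 ± 0.06 in c1 and -0.06 ± 0.06 in c2, and it was at 0.13 (adjusted p = 0.076) with each chromosome centred. The Aurkb call was also lost without the first control library in 2D, at -0.05 (adjusted p = 0.63).

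Of the replication genes in 2D, 3 of the 4 that make DNA precursors were higher for the mean of the clones, and 4 of the 7 that license or fire origins were lower, among them Cdc6, Cdt1 and Cdc45. Rrm1 stood at 394 and 331 CPM in c1, 407 and 413 CPM in c2, and 275 and 288 CPM in control libraries, every clone library above both control libraries, with log2 changes of 0.36 ± 0.06 in c1 (adjusted p = 3.4e-05) and 0.54 ± 0.06 in c2 (adjusted p = 2.1e-07). Rrm2 and Tyms rose too, by 0.37 ± 0.06 and 0.30 ± 0.06 in c1 and by 0.38 ± 0.06 and 0.17 ± 0.06 in c2, where the adjusted p of Tyms was 0.12 without the second c2 library. Tk1 was the exception, lower in c1 by -0.61 ± 0.05 (adjusted p = 1e-09) and at -0.03 ± 0.05 in c2 (adjusted p = 0.73). Cdc6 stood at 73.6 and 70.9 CPM in c1, 87.0 and 86.2 CPM in c2, and 113 and 113 CPM in control libraries. Cdt1 stood at 124 and 135 CPM in c1, 98.2 and 93.0 CPM in c2, and 149.5 and 139.8 CPM in control libraries. Both were below both control libraries in each clone, with log2 changes in c1 of -0.64 ± 0.07 for Cdc6 and -0.16 ± 0.06 for Cdt1, and in c2 of -0.38 ± 0.07 and -0.60 ± 0.06. The call of Cdt1 in c1 was lost without the first c1 library (adjusted p = 0.3). Their adjusted p in the mean of the clones was 9.7e-08 for Cdc6 and 2.1e-06 for Cdt1. Cdc45 was lower in both clones as well, by -0.57 ± 0.08 in c1 and -0.26 ± 0.07 in c2, where the adjusted p was 0.13 without the first control library. With chromosomes centred Cdc45 did not pass in either clone, at -0.19 in c1 (adjusted p = 0.077) and -0.12 in c2 (adjusted p = 0.28). Gins2 was higher in c2 by 0.39 ± 0.09 (adjusted p = 0.0018) and at 0.19 ± 0.10 in c1 (adjusted p = 0.13).

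The helicase split again in 2D, but no clone call given here for Mcm3, Mcm4, Mcm6 or Mcm7 passed with chromosomes centred. Mcm3 stood at 293 and 294 CPM in c1, 238 and 246 CPM in c2, and 341 and 328 CPM in control libraries, lower in both clones, by -0.19 ± 0.05 in c1 (adjusted p = 0.004) and -0.47 ± 0.05 in c2 (adjusted p = 1.1e-07). Mcm7 was higher in both, by 0.30 ± 0.05 (adjusted p = 3.7e-05) and 0.14 ± 0.05 (adjusted p = 0.033, and 0.29 without the second c2 library), and it overlaps Cops6 and Ap4m1 on the other strand and 2 miRNA genes over 12.6% of its exon bases in all. Mcm6 was lower in c2 by -0.39 ± 0.05 and at -0.00 ± 0.05 in c1, and Mcm4 was lower in c1 by -0.35 ± 0.06, a call lost with chromosomes centred at 0.04 (adjusted p = 0.67), and at -0.06 ± 0.06 in c2. Pcna rose for the mean of the clones by 0.13 ± 0.05 (adjusted p = 0.026), a call lost when any of 3 libraries was left out, with adjusted p of 0.22 without the second control library, 0.095 without the first c1 library and 0.064 without the first c2 library. Ccne1, cyclin E, rose in both clones, by 0.35 ± 0.13 (adjusted p = 0.034, and 0.32 without the second c1 library) and 0.54 ± 0.13 (adjusted p = 0.0015), and E2f1 rose in c1 by 0.59 ± 0.12 (adjusted p = 0.00019), with 0.23 ± 0.12 in c2 (adjusted p = 0.12).

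Whether the difference of a clone from control depended on the format was tested as the difference in 3D minus that in 2D. In c2 it was lower for 19 replication and 27 mitotic genes and higher for 1 replication gene, Cdt1, beside 14.8% lower and 7.43% higher over all genes tested. In c1 it was higher for 6 replication and 2 mitotic genes and lower for 0, beside 3.57% higher and 3.44% lower over all genes. At an unadjusted p under 0.05, edgeR gave 0 members lower in c1, and DESeq2 gave 0. The medians in c2 were -0.40 for replication and -0.47 for mitotic genes, and in c1 they were 0.15 and 0.07. The 8 higher members of c1 became 4 without the second c1 library in 2D, 2 and 5 without the first and the second c1 library in 3D, 2 and 3 without the first and the second control library in 3D, and 5 without the second c2 library in 3D, so that count rests on single libraries. The call of Cdt1 in c2 was lost without any of 6 libraries, the first control or second c2 library in 2D or any control or c2 library in 3D.

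The 5 genes with the most negative value of this difference in c2 were Cenpf at -0.88 ± 0.10, Rrm1 at -0.79 ± 0.09, Aurka at -0.71 ± 0.09, Rrm2 at -0.71 ± 0.09 and Prc1 at -0.69 ± 0.07. Cenpf lies on chromosome 1, whose median log2 change in c2 was itself lower in 3D (-0.53) than in 2D (-0.29). For Aurka the c2 libraries were at 47.6 and 51.6 CPM, against 62.0 and 63.2 CPM in control in 3D, and at 177 and 168 CPM, against 128 and 139 CPM in control in 2D. The clone was thus below control in gels and above it on plastic, with an adjusted p of the difference of 5.8e-06. Rrm1 showed the same reversal, with an adjusted p of 3.6e-07. In c1 the genes called were Mcm5, Cdc45, Rrm2, Tk1, E2f2, Ccne2, Ccnb1 and Mybl2, with values from 0.27 for Mcm5 to 0.67 for E2f2.

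For the mean of both clones, the difference was lower for 4 replication and 11 mitotic genes and higher for 0, beside 5.18% lower and 2.83% higher over all genes. At an unadjusted p under 0.05, edgeR gave 3 members higher, and DESeq2 gave 1 at its adjusted threshold. Without Gm26917 and Gm42418 the 15 lower members became 7, and the share of all genes called in that fit is not given here. Left out, single libraries moved the 15 to 6 and 7 (first and second control library in 3D), 5 (second c1 library in 3D), 8 and 9 (first and second c2 library in 3D). Cenpf had the smallest p of the centromere group at -0.52 ± 0.08 (adjusted p = 0.00017), and Rrm1 was at -0.44 ± 0.08 (adjusted p = 0.00047). Pcna, E2f2, Cdk2, Foxm1 and Cdc20 had the smallest p of their role groups and did not pass the test, with log2 values of -0.12, 0.41, -0.17, -0.06 and -0.15.

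Several members lie on chromosomes that differed as a whole between a clone and control. In c1 the median log2 change of the genes of chromosome 11 was -0.43 in 3D and -0.38 in 2D (1122 genes tested), and that of chromosome 16 was -0.32 in 3D and -0.35 in 2D (411 genes). Cdc6, Tk1, Aurkb, Birc5 and Top2a lie on chromosome 11, and 4 of these 5 in 3D and all 5 in 2D were lower in c1. Mcm4, Cdc45 and Rfc4 lie on chromosome 16, and 1 of 3 in 3D and 3 of 3 in 2D were lower in c1. Those 8 genes made up 5 of the 7 members lower in c1 in 3D and 8 of the 15 in 2D. In c2 the median of chromosome 1 (776 genes) was -0.53 in 3D and -0.29 in 2D, and it holds Mcm3, Mcm6 and Cenpf. Whether the clones differ in copy number of these chromosomes was not tested.

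With each chromosome centred in each library, 37 members were higher and 1 lower in c1 in 3D, beside 21.3% higher and 14% lower over all genes in the same fit, and 22 were higher and 6 lower in 2D, beside 17.5% higher and 13.7% lower. None of the 7 members lower in c1 in 3D kept that call. Mcm4, Cdc6, Cdk2 and Ccnb2 no longer passed the test, and Tk1 at 0.33 (adjusted p = 2.1e-05), Aurkb at 0.19 (adjusted p = 0.018) and Birc5 at 0.29 (adjusted p = 0.00074) were higher instead. The member lower in c1 in 3D after centring was Aurka, at -0.25 (adjusted p = 0.0044). Of the 32 higher members of c1 in 3D, 29 kept their call. Of the 15 lower members of c1 in 2D, 5 kept their call, Birc5 and Top2a were higher instead, and Mcm3, Mcm4, Cdt1, Cdc45, Rfc4, Cdk2, Aurkb and Kif23 did not pass. Of the 23 higher in c1 in 2D, 16 kept their call, and Mcm7, Pcna, Tyms, Ccne1, Bub1, Bub1b and Ube2c did not. Of the 24 higher in c2 in 2D, 17 kept their call, and Mcm7, Tyms, Ccne2, Ccna2, Ccnb1, Bub1b and Mad2l1 did not. In c1, Top2a then stood at 0.41 in 3D with an adjusted p of 1.1e-06, and at 0.23 in 2D with an adjusted p of 0.002, against -0.07 and -0.17 before centring, so its sign turned. Cdc6 and Tk1 remained lower in c1 in 2D, at -0.25 (adjusted p = 0.0069) and -0.21 (adjusted p = 0.0037). In c2 in 3D, 46 members were lower and 0 higher with chromosomes centred, beside 15.6% lower and 8.44% higher over all genes, and Mcm3 stood at -0.41 (adjusted p = 4.4e-06), Mcm6 at -0.38 (adjusted p = 9.6e-06) and Cenpf at -0.18 (adjusted p = 0.059). For Mcm3 and Mcm6 in 2D the c2 values were -0.12 (adjusted p = 0.098) and -0.04 (adjusted p = 0.61), no longer past the threshold. The excess of the mitotic over the replication median for the mean of the clones in 2D was 0.198 with chromosomes centred, against 0.206 without.

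**Figure D4:**
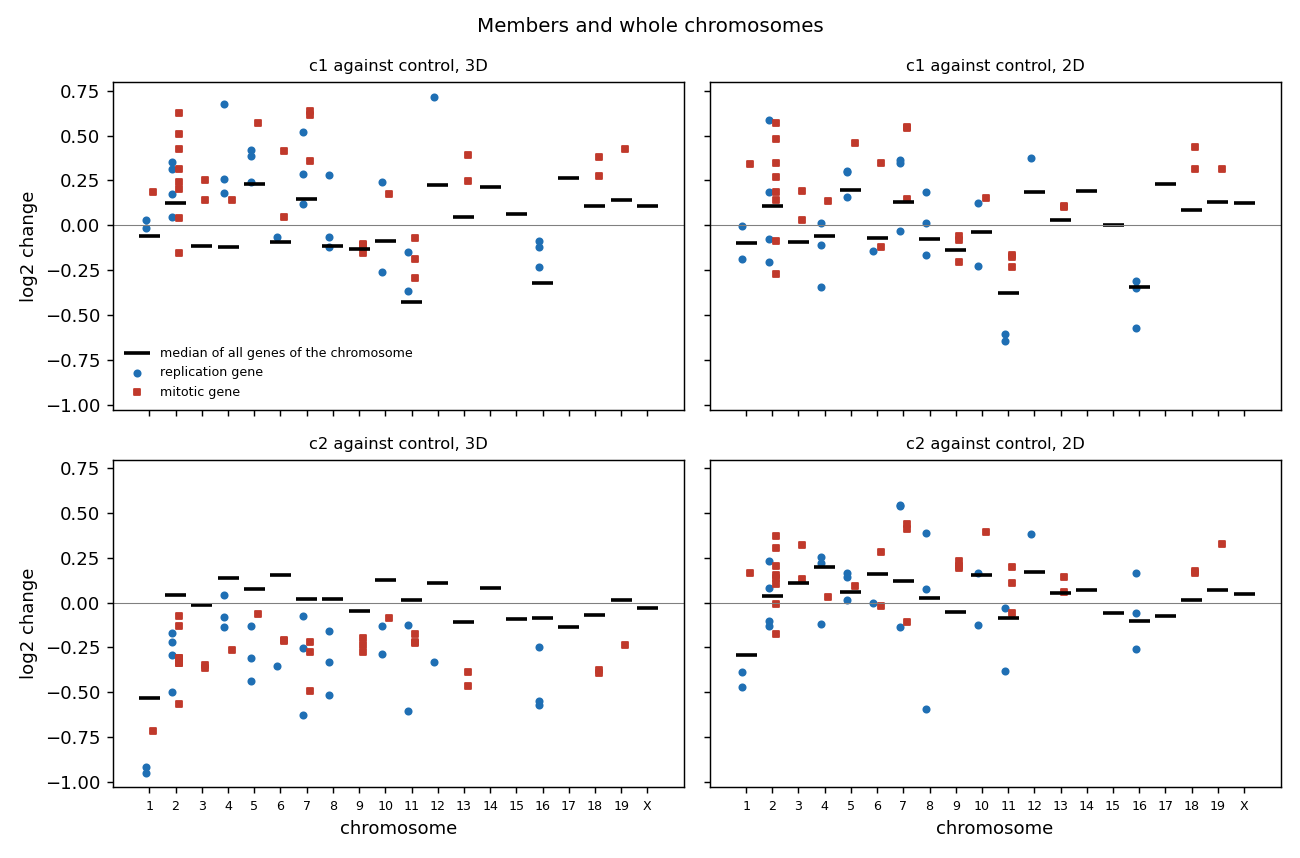
The log2 change of each member against control (vertical axes) by chromosome (horizontal axes), for c1 above and c2 below, in 3D on the left and 2D on the right, with replication genes as circles and mitotic genes as squares. Black bars are the median of all tested genes of the chromosome. The bars of chromosomes 11 and 16 in c1 and of chromosome 1 in c2 lie lowest, and the members on them lie low in 2D in c1 and in 3D in c2.

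The other genes of both processes were counted in the same way. Of the 54 other mitotic genes, 40 were higher and 4 lower in c1 in 3D and 0 were higher and 42 lower in c2 in 3D, while in 2D 24 were higher and 6 lower in c1 and 23 higher and 6 lower in c2. Of the 42 other replication genes, 21 were higher and 7 lower in c1 in 3D and 0 higher and 29 lower in c2 in 3D, while in 2D 8 were higher and 10 lower in c1 and 12 higher and 10 lower in c2. For the counts of 0, edgeR gave 0 at an unadjusted p under 0.05 in both lists, and DESeq2 gave 0. The 13 genes of other E2F and DP factors and of the retinoblastoma and DREAM proteins had 2 higher and 2 lower in c1 in 3D, 1 higher and 4 lower in c2 in 3D, 3 higher and 3 lower in c1 in 2D, and 4 higher and 1 lower in c2 in 2D. Over all genes tested in 3D, 22% were higher and 23% lower in c1, and 11.9% higher and 17.4% lower in c2. In 2D, 19.8% of all genes were higher and 20% lower in c1, and 18.9% higher and 15% lower in c2. In c1 in 2D, 19% of the other replication genes were higher and 23.8% lower. Of the 13 genes, 23.1% went each way there, so both lists were near the shares of all genes.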

How the data were processed

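RNA-seq of polyadenylated RNA was done on 12 libraries, prepared with the TruSeq Stranded mRNA kit per the labels' protocols. The authors deposited raw read counts per gene symbol, 1 table for 2D and 1 for 3D. The submitters' processing notes name STAR 2.7.9a, featureCounts, FastQC 0.11.9, Cell Ranger 3.0.0, R 4.1.1 and build mm10, and neither their roles nor the strand setting is given in the sources used here.

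The tables were merged on gene symbol. Genes passing filterByExpr (13763 of 31017) were fitted in R 4.3.3 by edgeR 4.0.16 with limma 3.58.1, using TMM scaling and a mean for each of the 6 groups, which left 6 residual degrees of freedom. The common biological coefficient of variation was 4.51%. Each p is two-sided, from edgeR's quasi-likelihood test, and is adjusted by Benjamini-Hochberg over all genes tested, with a threshold of 0.05. The script was tested on simulated data. CPM are scaled by TMM, log2 changes are given ± SE, and the libraries of a group are given as replicate 1, then replicate 2. Each member had at least 146 counts in each library. Libraries of a group differed by more than sampling noise (chi-square per degree of freedom 3.51 to 9.51). Positions and exon overlaps are from GENCODE M21. Of the 57 members, 21 share exon bases with another gene, and their counts are uncertain. Alternatives were DESeq2 1.42.0, other scalings and filters, separate fits, a replicate block, centred chromosomes, other sets of members and each library left out.

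The members and all lists were chosen with earlier results of these data known. The rule for named genes took, in each role group of each main comparison, the member with the smallest p and any member called against the median of its class. Genes beyond these were named after their values were seen.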

Additional observations from a re-analysis of the deposited data

Results flagged for a closer look

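The results below were singled out because effects differed between formats or between clones by a test of the difference itself, edgeR's quasi-likelihood test adjusted over all genes. In 2D, c2 had 18 members higher (31.6%) and 15 lower (26.3%) than c1, beside 23.2% and 18.4% of all genes tested, and in 3D 48 lower, beside 28.5%. With chromosomes centred, 17.5% of the members went each way in 2D, near the 17.1% higher and 16.5% lower of all genes. When the difference from control in 2D was subtracted from that in 3D, the result was higher for 8 members in c1, beside 3.57% of all genes. In c1 it was lower for 0 members, also at an unadjusted p under 0.05 and by DESeq2, beside 3.44% of all genes. In c2 it was higher for 1 and lower for 46, beside 7.43% and 14.8%. For the mean of both clones it was lower for 15, beside 5.18%. Among the named genes, the value for that mean was -0.25 for Mcm6, -0.40 for Gins2, -0.44 for Rrm1, -0.27 for Ccnb2, -0.39 for Aurka, -0.24 for Ttk, -0.52 for Cenpf, -0.31 for Prc1 and -0.28 for Mki67 on the log2 scale. The calls of Mcm6, Gins2, Ccnb2, Ttk and Mki67 were each lost with some single library left out. Of those 15 calls, 4 held in each fit that left out a library. Mcm6 and Cenpf lie on chromosome 1, whose median log2 change in c2 against control was -0.53 in 3D and -0.29 in 2D. The causes of these differences were not tested.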

How the results depend on the processing

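Counts below are of members, and the format difference means the difference from control in 3D minus that in 2D. Outside the main fit and the centred fit, the share of all genes called is not given here and may have moved too. Over the 36 members that overlap no gene, fewer could be called by construction. Their fit is the main one, so the shares over all genes are those given above. In 2D 16 were higher for the clones' mean, 15 higher and 9 lower in c1, and 11 higher and 6 lower in c2 against c1. In 3D 20 were higher in c1 and 31 lower in c2 against c1. For 3D against 2D, 3 were higher in control, 4 higher and 30 lower in c1, 2 higher and 33 lower in c2, and 3 higher for the clones' mean. The format difference was higher for 5 in c1 and lower for 29 in c2. The mitotic minus the replication median became -0.058 for the clones' mean in 3D, against 0.065 over all members, and 0.073 in control for 3D against 2D.

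With chromosomes centred, 5 were lower in 2D and 1 higher and 11 lower in 3D for the clones' mean, 6 lower in 2D and 1 lower in 3D in c1, 10 higher in 2D in c2 against c1, and the format difference of c2 was higher for 0. Over all genes in that fit, 12.6% were lower in 2D and 8.2% higher and 9.08% lower in 3D for the clones' mean. In c1, 13.7% of all genes were lower in 2D and 14% in 3D. In c2 against c1 17.1% were higher in 2D, and the format difference of c2 was higher for 6.51%. Aurkb turned to 0.129 for the clones' mean in 2D. In separate fits of 2D and 3D, 13 were higher in c2 in 2D, 12 lower in c1 in 3D and 2 higher in c2 against c1 in 3D. The format difference of the clones' mean was higher for 1 with DESeq2 size factors, with the DESeq2 Wald test and without Gm26917 and Gm42418, and lower for 7 without those genes. Without Ccna2, Mybl2, E2f7 and E2f8, the mitotic minus the replication median for 3D against 2D was 0.15 in control and 0.028 for the clones' mean, so its sign depends on the class split. Except where a construction is named, the cause was not tested.

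Libraries sharing a replicate number did not deviate together (correlations -0.045 to 0.022), so the numbers are not taken as pairs. With a replicate block, the last median difference was -0.028, against -0.09 without, and every count of members stayed within 1.5 times its value. With each library left out in turn, the median difference ranged from 0.144 to 0.209 for the clones' mean in 2D, from -0.006 to 0.075 in control for 3D against 2D, and from -0.101 to -0.046 for the format difference of the clones' mean. The counts ranged from 2 to 7 higher for the clones' mean in 3D, 3 to 9 lower in c1 in 3D, 9 to 17 lower in c2 against c1 in 2D, 0 to 1 higher and 5 to 17 lower for the format difference of the clones' mean, 2 to 9 higher for that of c1 and 0 to 1 higher for that of c2. No called member changed sign with a library left out.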
